A study of Penicillium citrinum with 6 samples.

Results

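The genes described here are the protein kinases and protein phosphatases of the mould *Penicillium citrinum*, the enzymes that add phosphate groups to other proteins and remove them. They were chosen by product name. A gene was taken if its name in the deposited tables held protein kinase, protein phosphatase, histidine kinase or serine/threonine-protein, and names about the cell cycle, cyclins, cell division, autophagy or the vacuole were left out. This gave 156 of the 9385 genes, after 2 of 158 matching genes were dropped. Kinases and their subunits make up 118 of them, and phosphatases and their subunits the other 38. The name rule uses no measured value, but it was set with earlier results of these data known. The names also do not come from *P. citrinum* itself. They carry the names of relatives in yeasts, other fungi, plants, animals or bacteria, and 13 of the names are shared by 34 of the genes. How reads of similar copies were assigned is not given in the sources used here, so the split of a level between genes of the same name is uncertain.

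The series measured total RNA of wild-type mycelium by RNA sequencing in 6 libraries, 2 in each of 3 groups. TL3D and TL2D are mycelium from tobacco leaves that were inoculated with conidia, the asexual spores, and sampled after 3 and 2 days at 25 °C. CK2D is mycelium from conidia plated on Czapek-Dox agar, a defined medium of sucrose and nitrate, and sampled after 2 days at the same temperature. The codes are not explained in the titles. The leaves alone were sampled at both times, which tied each code to its substrate. No group carries a mutation or a drug, and the labels call the leaves "flured" without further detail. Whether replicates came from separate cultures is not in the labels. A p-value here therefore reflects the spread between these samples alone, which may be technical.

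Kinases and phosphatases carry signals from the cell surface to the nucleus and the growth machinery. In fungi, histidine kinases sense osmotic, oxidative and chemical stress and pass phosphate through a relay to mitogen-activated protein (MAP) kinase cascades, while cAMP-dependent protein kinase (PKA), TOR and SNF1 kinases tie growth to nutrients. Phosphatases of the PP1, PP2A, PP2B (calcineurin), PP2C and tyrosine or dual-specificity classes take phosphate groups off proteins again. Moulds use the same pathways for hyphal growth, for sporulation and for growth on plant tissue.

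Levels are FPKM, the fragments of a gene corrected for its length and for the size of the library, and the 6 libraries summed to between 582600 and 614206 FPKM. Read totals are unknown, so no counting interval can be given, and the 2 libraries per group set the precision. The TL2D libraries differed more than the others, with 361 of 8147 genes at least 2-fold apart, against 12 of 8277 in TL3D and 19 of 8170 in CK2D. Mycelium markers (tubulin and chitin synthase genes) reached 1 FPKM in all libraries for 24 of 27 genes, and no gene name held chlorophyll, photosystem or ribulose bisphosphate carboxylase. The word chloroplast stood in 6 enzyme names, with a summed level of 84.7 and 71.4 FPKM in TL3D, 74.9 and 71.6 FPKM in TL2D, and 137 and 161 FPKM in CK2D, where no leaf was present. Of 5 tested in TL2D against CK2D, 1 rose and 4 fell. Conidiation markers, 8 genes of hydrophobins and spore regulators, differed between the groups in both directions, with 2 rises and 4 falls in TL2D against CK2D, 4 and 2 in TL3D against TL2D, and 4 and 3 in TL3D against CK2D. Their summed level was 21328 and 24621 FPKM in TL3D, 10101 and 7199 FPKM in TL2D, and 20613 and 19358 FPKM in CK2D. Most of that sum came from the hydrophobin gene PCI_0227, with 15365 and 17804 FPKM in TL3D, 6085 and 3764 FPKM in TL2D, and 17134 and 16188 FPKM in CK2D, while the hydrophobin gene PCI_2115 had 607 and 713 FPKM in TL3D, 1702 and 2137 FPKM in TL2D, and 404 and 314 FPKM in CK2D and was highest in TL2D. None of the 8 was at 0, and the spore regulator brlA (PCI_2178) had 211 and 281 FPKM in TL3D, 212 and 139 FPKM in TL2D, and 489.9 and 412 FPKM in CK2D. The spore regulator wetA (PCI_1706) had 131 and 155 FPKM in TL3D, 34.4 and 18.1 FPKM in TL2D, and 185 and 175 FPKM in CK2D. For abaA (PCI_1856) the values were 38.4 and 50.9 FPKM in TL3D, 22.2 and 10.7 FPKM in TL2D, and 88.1 and 76.0 FPKM in CK2D. Each spore regulator was lower in both TL2D libraries than in either CK2D library. The part of conidiation in the results below was not tested, and in bulk RNA fewer cells of a type and less RNA per cell cannot be told apart.

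Kinase and phosphatase genes were moderately expressed. Their median level over all 6 libraries was 23.4 FPKM, against 19.5 FPKM for all genes. The range ran to 160 FPKM, 9 genes lay above 100 FPKM and 7 below 1 FPKM. Together they held between 0.798% and 0.828% of all FPKM in the leaf libraries, against 0.927% and 0.933% in the CK2D libraries. The 5 most abundant genes were the PKA regulatory subunit (PCI_5254), the PP2A catalytic subunit (PCI_2812), the stress MAP kinase hog1 (PCI_3781), the PP2A scaffold subunit A (PCI_6567) and the PP2C homolog 3 (PCI_3515). PCI_2812 had 149 ± 3.48 FPKM in TL3D, 157 ± 8.82 FPKM in TL2D and 146 ± 11.3 FPKM in CK2D (SD, n = 2 libraries per group here and below). PCI_6567 had 126 ± 9.39 FPKM in TL3D, 138 ± 0.893 FPKM in TL2D and 134 ± 1.2 FPKM in CK2D, and PCI_3515 had 117 ± 2.56 FPKM in TL3D, 139.7 ± 2.5 FPKM in TL2D and 134 ± 2.9 FPKM in CK2D. None of these 3 phosphatase genes passed the test in TL2D against CK2D, where adjusted p was 0.397, 0.677 and 0.595, or in the other comparisons. Changes below are fitted log2 changes ± SE on the log2(FPKM + 1) scale, which understates the change of low genes, and folds are ratios of mean FPKM.

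On leaves at day 2 the kinase and phosphatase genes fell more often than they rose. Of the 156 genes, 151 were tested in TL2D against CK2D, because PCI_2045 (cbk1), PCI_2734 (kinase-like domain), PCI_6875 (KIN4), PCI_7831 (mek1) and PCI_8966 (hybrid histidine kinase J) did not reach 1 FPKM in 2 of the 4 libraries. At an adjusted p under 0.05 in limma's test, 15 genes (9.93%) rose and 62 (41.1%) fell, together 51.0% of the genes tested. Among all 8286 genes tested, 54.2% were called in either direction, 24.8% as higher and 29.4% as lower. The share called was near that of all genes, with a smaller share of rises and a larger share of falls. Fitted changes of at least 2-fold were fewer, with 6 rises and 17 falls, while 22.3% of all genes tested changed by that much in either direction. The median fitted change was a log2 of −0.28, against −0.10 over all genes, and the median size of change was 0.40, against 0.52. Kinases were called in 55.8% of those tested and phosphatases in 36.8%, and the difference between these shares was not tested.

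These counts rest on the pair of CK2D libraries. Without CK2D replicate 1 only 3 genes passed as higher and 6 as lower, and without CK2D replicate 2 4 and 5, since the less alike TL2D libraries then set the error alone. Over all genes the share called as higher and lower was then 7.16% and 6.53% or 7.49% and 6.15%. The 7 genes that passed in TL2D against CK2D with any single library left out were the rises PCI_3307 (rio2), PCI_8719 (rio1) and PCI_5343 (kinase-like domain) and the falls PCI_4595 (NIK1), PCI_1411 (HOG1), PCI_6282 (hog1) and PCI_7271 (GIN4). Without TL2D replicate 1 or 2, 75 and 72 of the 77 called genes still passed, and all 77 kept their direction in each of the 4 fits.

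Between the leaf days few of these genes differed. Of 149 tested in TL3D against TL2D, 7 rose and 1 fell, which is 5.37%, against 10.1% of all 8222 genes tested (6.77% higher and 3.30% lower). The median fitted change was a log2 of 0.03, against −0.02 over all genes. The rises were in a histidine kinase 5 gene (PCI_4325), another of that name (PCI_9300), srk1 (PCI_9393), HOG1 (PCI_1411), GIN4 (PCI_7271) and the PKA genes PCI_7766 and PCI_1095. The fall was in cds1 (PCI_4053). A fitted 2-fold change was reached by 5 of the rises (3.36% of the genes tested), against 5.14% of all genes tested. The fall did not reach it, against 0.815% of all genes tested. The values of the 8 genes against CK2D are given with each gene, and the comparisons share the TL2D libraries. Without either TL3D library 0 genes of the whole table passed limma's test, and 15 or 13 kinase and phosphatase genes then had an unadjusted p under 0.05. All 8 genes kept their direction with any single library left out. By an FDR under 0.05 in the authors' deposited table, 14 rose and 5 fell. The authors marked 5.13% of the kinase and phosphatase genes as significant there, against 8.04% of all genes.

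On leaves at day 3 these genes again fell more often than they rose against plates. In TL3D against CK2D, 151 genes were tested, 15 rose and 58 fell, which is 48.3%, against 58.3% of all 8356 genes tested (28.1% higher and 30.2% lower). Only 1 rise (0.662%) and 9 falls (5.96%) reached a fitted 2-fold change, against 8.81% and 7.08% of all genes tested. The median fitted change was a log2 of −0.16, against −0.04 over all genes. Of the 73 genes called, 45 passed with any single library left out, and the counts then ran from 10 to 14 rises and from 43 to 52 falls. Of the genes given below as changed in TL3D against CK2D, PCI_5360, PCI_8844, PCI_9177 and PCI_9393 lost the call without TL3D replicate 1, and PCI_3727, PCI_8307 and PCI_9177 without TL3D replicate 2. PCI_5360 and PCI_8844 lost it without CK2D replicate 1, and PCI_3727 and PCI_9177 without CK2D replicate 2, and the highest adjusted p of these 6 genes ran from 0.062 to 0.197. PCI_0254, PCI_4389, PCI_5254 and PCI_8719 lost it too, as given with their values. The comparisons share libraries, so their values stand side by side below and no overlap between them is given as a result.

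**Figure D1:**
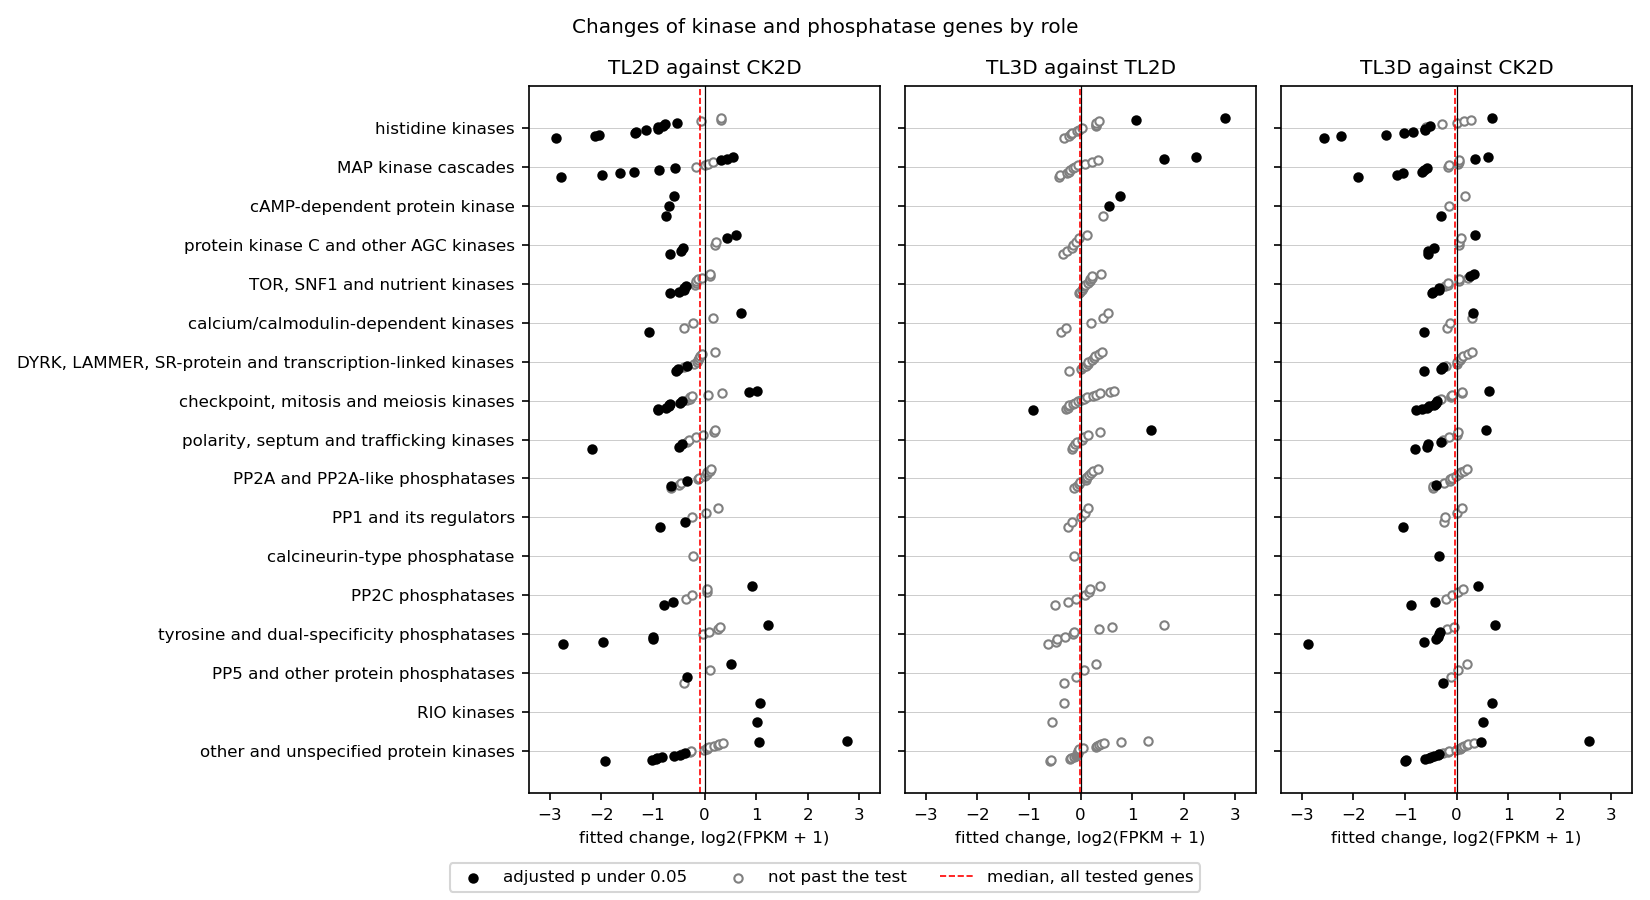
Fitted change of each tested kinase and phosphatase gene, as log2(FPKM + 1), in 17 role groups and 3 comparisons. Filled points passed an adjusted p of 0.05 and the dashed line is the median of all tested genes, and filled points lie mostly left of 0 in the comparisons with CK2D and are 8 in all in TL3D against TL2D.

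Histidine kinases held the largest fitted fall at day 2. Of 15 genes, 14 were tested in TL2D against CK2D. Of these 11 fell (78.6%, against 29.4% of all genes tested), the other 3 did not pass, and the median fitted change was a log2 of −0.90. The largest change was in PCI_4595, which carries the name of NIK1, a hybrid histidine kinase whose *Neurospora crassa* relative takes part in the osmotic response and in sensitivity to fungicides. It had 12.1 and 11.5 FPKM in TL3D, 10.7 and 8.32 FPKM in TL2D, and 72.9 and 78.4 FPKM in CK2D. All 4 leaf libraries lay far below both plate libraries, and the plate values were close to each other. PCI_4595 fell 7.95-fold in TL2D relative to CK2D (log2 change −2.87 ± 0.15, adjusted p = 0.00081) and 6.4-fold in TL3D relative to CK2D (log2 change −2.58 ± 0.09, adjusted p = 1.03e-06).

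The other NIK1-named genes did not move alike. PCI_7141 had 6.71 and 5.91 FPKM in TL3D, 7.58 and 5.86 FPKM in TL2D, and 10.8 and 13.6 FPKM in CK2D, so it was lower in all 4 leaf libraries and fell in TL2D (log2 change −0.77 ± 0.19, adjusted p = 0.0255) and in TL3D (log2 change −0.85 ± 0.14, adjusted p = 0.00178) relative to CK2D. PCI_5825, the most abundant histidine kinase gene on leaves, had 24.2 ± 2.21 FPKM in TL3D, 27.4 ± 1.43 FPKM in TL2D and 21.8 ± 1.48 FPKM in CK2D and did not pass the test against CK2D at either leaf day (log2 change 0.32 ± 0.11, adjusted p = 0.0634 in TL2D, log2 change 0.14 ± 0.11, adjusted p = 0.283 in TL3D).

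The tested hybrid kinase J genes, named after dhkJ of the slime mould *Dictyostelium*, and the GacS genes, named after a sensor of *Pseudomonas*, fell on leaves. The dhkJ-named PCI_3390 had 1.93 and 1.71 FPKM in TL3D, 3.38 and 1.36 FPKM in TL2D, and 11.6 and 13.2 FPKM in CK2D. The TL2D libraries differed from each other, but both stayed far below the plates. PCI_3390 fell 5.23-fold in TL2D (9.10-fold without TL2D replicate 1, log2 change −2.06 ± 0.33, adjusted p = 0.00876) and 6.79-fold in TL3D (log2 change −2.24 ± 0.13, adjusted p = 1.02e-05) relative to CK2D. Its namesake PCI_5361 fell less (log2 change −0.54 ± 0.11, adjusted p = 0.0157 in TL2D, log2 change −0.51 ± 0.11, adjusted p = 0.00555 in TL3D), and the last gene of that name, PCI_8966, stayed under 1 FPKM in group mean and was not tested. The GacS-named PCI_2615 had 8.94 and 9.38 FPKM in TL3D, 11 and 10.7 FPKM in TL2D, and 19 and 20.5 FPKM in CK2D, with every leaf library lower than either plate library. The gene fell in TL2D (log2 change −0.81 ± 0.11, adjusted p = 0.00612) and in TL3D (log2 change −1.03 ± 0.10, adjusted p = 0.000169) relative to CK2D. The lower expressed GacS gene PCI_6283 had 1.3 and 1.15 FPKM in TL3D, 1.28 and 1.26 FPKM in TL2D, and 3.86 and 5.73 FPKM in CK2D, again with all leaf libraries below the plates. It fell 3.76-fold in TL2D (log2 change −1.33 ± 0.21, adjusted p = 0.00868) and 3.91-fold in TL3D (log2 change −1.36 ± 0.19, adjusted p = 0.000721) relative to CK2D. PCI_5360, named after the peroxide-sensing kinase mak1 of fission yeast, had 4.18 ± 0.468 FPKM in TL2D, against 8.72 ± 1.81 FPKM in CK2D and fell in TL2D (log2 change −0.90 ± 0.19, adjusted p = 0.0172), and PCI_9189, named histidine kinase 4 after a kinase of *Arabidopsis*, had 13.3 ± 0.858 FPKM in TL2D, against 25.6 ± 1.51 FPKM in CK2D and fell likewise (log2 change −0.90 ± 0.11, adjusted p = 0.00523). In TL3D relative to CK2D the fitted log2 changes were −0.61 ± 0.17 for PCI_5360 and −0.61 ± 0.10 for PCI_9189, with adjusted p of 0.0185 and 0.00183.

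Of the 4 histidine kinase 5 genes, whose name comes from *Arabidopsis*, 2 rose between the leaf days. PCI_4325 had 14 and 10.4 FPKM in TL3D, 1.51 and 0.397 FPKM in TL2D, and 7.15 and 7.15 FPKM in CK2D. Its TL2D libraries were the lowest, its CK2D libraries were almost equal, and its TL3D libraries lay above both other groups. PCI_4325 rose 12.8-fold in TL3D relative to TL2D (log2 change 2.80 ± 0.33, adjusted p = 0.0198), 30.7-fold without TL2D replicate 1 and 8.08-fold without TL2D replicate 2. It was lower in TL2D than in CK2D (log2 change −2.12 ± 0.31, adjusted p = 0.00741) and higher in TL3D than in CK2D (log2 change 0.68 ± 0.15, adjusted p = 0.00636). PCI_9300 followed at a low level, with 1.78 and 1.55 FPKM in TL3D, 0.444 and 0.0971 FPKM in TL2D, and 3.06 and 1.57 FPKM in CK2D. Its TL2D libraries were the lowest, and its TL3D and CK2D libraries overlapped. PCI_9300 rose 6.14-fold in TL3D relative to TL2D (log2 change 1.08 ± 0.21, adjusted p = 0.0448), 17.1-fold and 3.74-fold without TL2D replicate 1 and 2. It fell in TL2D relative to CK2D (log2 change −1.36 ± 0.30, adjusted p = 0.0202) and did not pass in TL3D against CK2D (log2 change −0.28 ± 0.23, adjusted p = 0.321). PCI_4223, the lowest of the 4, had 0.982 and 0.359 FPKM in TL3D, 0.277 and 0 FPKM in TL2D, and 1.04 and 2.03 FPKM in CK2D, and one TL2D library was listed at 0. It fell in TL2D relative to CK2D (log2 change −1.14 ± 0.28, adjusted p = 0.026) and was not tested between the leaf days. PCI_4920, the remaining gene of that name, had 12.8 ± 0.838 FPKM in TL3D, 9.85 ± 1.53 FPKM in TL2D and 10.3 ± 0.103 FPKM in CK2D and PCI_3118, named histidine kinase 3, had 17.6 ± 1.83 FPKM in TL3D, 23.2 ± 10.1 FPKM in TL2D and 17.5 ± 1.004 FPKM in CK2D. Neither passed the test against CK2D, at an adjusted p of 0.719 and 0.417 in TL2D and of 0.0544 and 0.979 in TL3D, or between the leaf days (log2 change 0.35 ± 0.15, adjusted p = 0.21 for PCI_4920, log2 change −0.32 ± 0.31, adjusted p = 0.53 for PCI_3118).

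At day 3, in TL3D against CK2D, 8 of the 14 tested histidine kinase genes fell (57.1%) and 1 rose (7.14%), against 30.2% and 28.1% of all genes tested. The falls in TL2D against CK2D numbered 2 and 1 without CK2D replicate 1 or 2, with 10 and 9 genes at an unadjusted p under 0.05. Partners that carry the phosphate onward were taken from a list of names. The response regulator mcs4 (PCI_7779), which in fission yeast passes the signal to the stress MAP kinase cascade, fell in TL2D relative to CK2D (log2 change −0.58 ± 0.10, adjusted p = 0.0101), and the transcription factor gene SKN7 (PCI_1785) did not pass (log2 change 0.14 ± 0.11, adjusted p = 0.321).

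**Figure D2:**
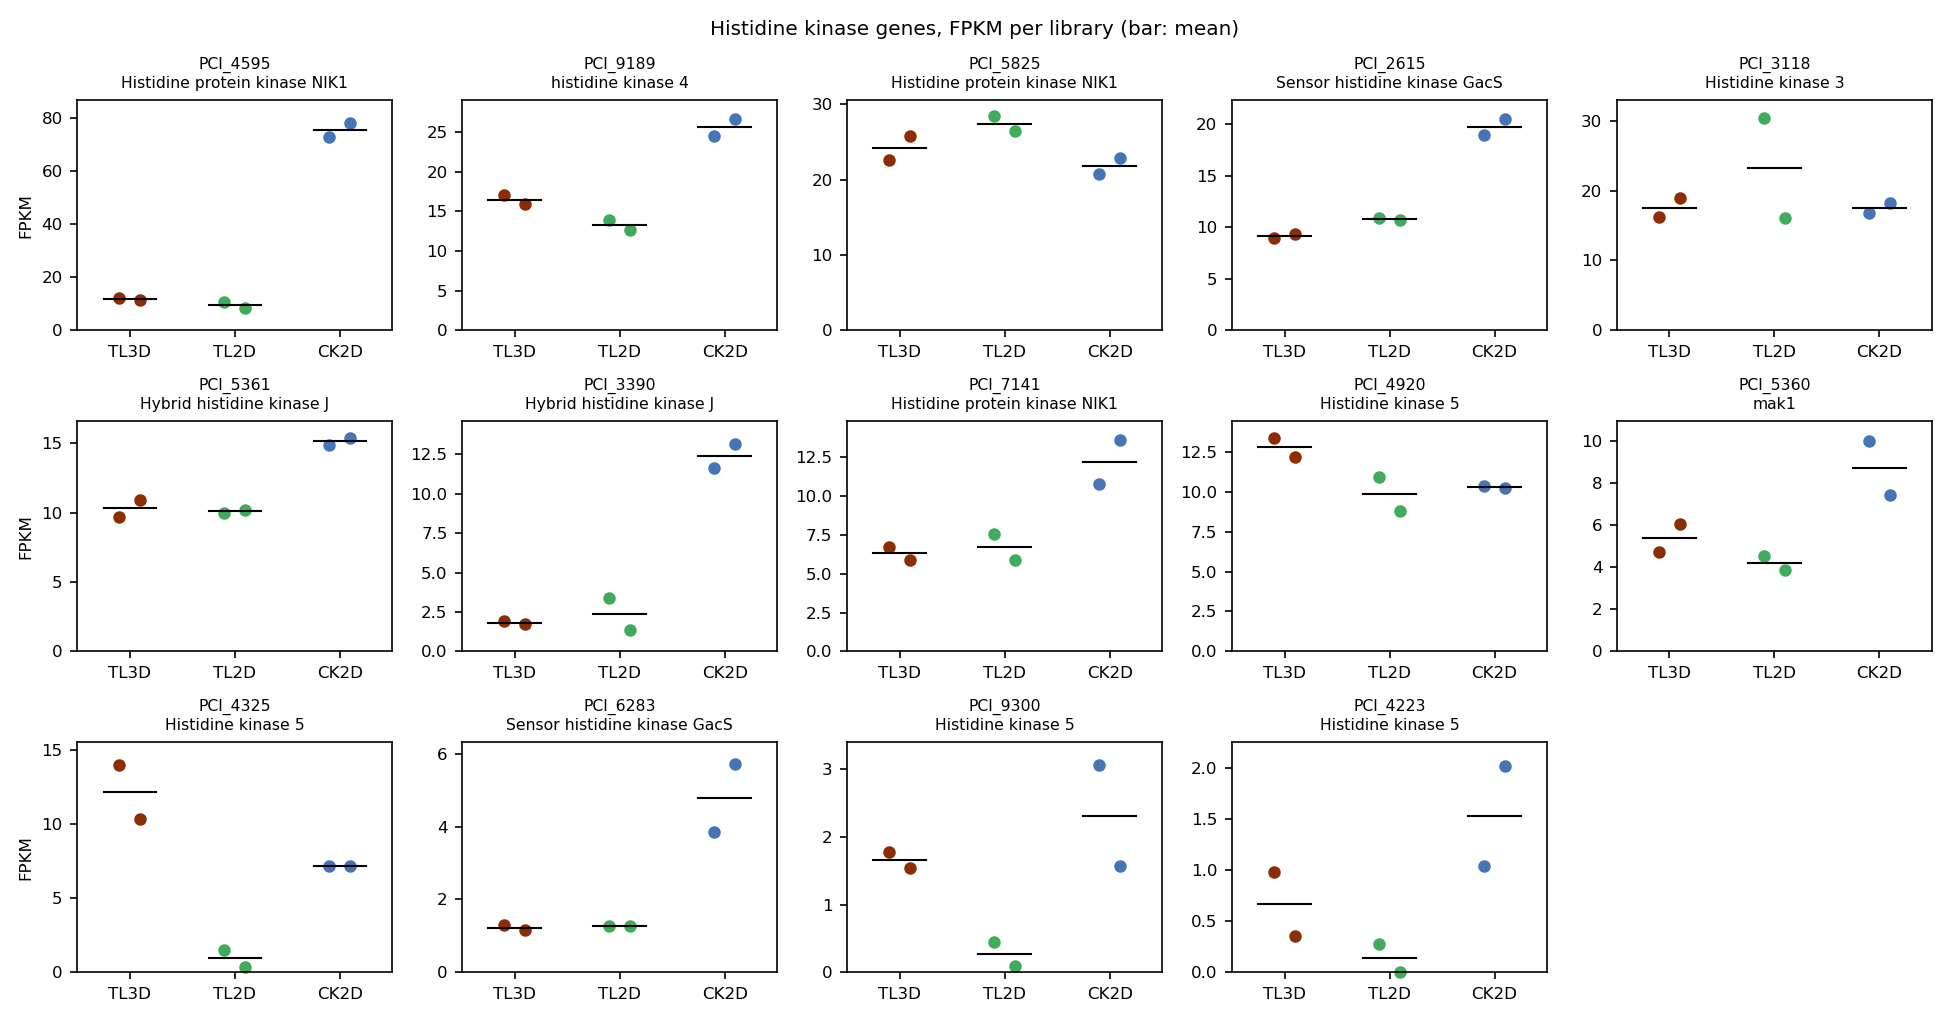
FPKM of the 14 tested histidine kinase genes in each library of TL3D, TL2D and CK2D, each panel on its own linear axis from 0, points for libraries and bars for means. PCI_4595 sits between 8.32 and 12.1 FPKM in the 4 leaf libraries and above 70 FPKM in both CK2D libraries, while PCI_4325 is lowest in TL2D.

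MAP kinase cascade genes held 3 rises (23.1%) and 6 falls (46.2%) among 13 tested in TL2D against CK2D, against 24.8% and 29.4% of all genes tested. The falls were in genes named after hog1, wis1 and srk1, which in yeasts belong to the stress cascade, and HOG1 is the kinase that answers osmotic stress in budding yeast. The most abundant hog1 gene, PCI_3781, had 116 and 118 FPKM in TL3D, 111 and 133 FPKM in TL2D, and 178 and 185 FPKM in CK2D. Both leaf days lay below the plates, and it fell in TL2D (log2 change −0.57 ± 0.12, adjusted p = 0.0164) and in TL3D (log2 change −0.63 ± 0.08, adjusted p = 0.000491) relative to CK2D. The second hog1 gene, PCI_6282, had 6.003 and 4.9 FPKM in TL3D, 5.15 and 5.02 FPKM in TL2D, and 21.7 and 24.7 FPKM in CK2D, with all leaf libraries well below the plates. It fell 4.55-fold in TL2D (log2 change −1.99 ± 0.13, adjusted p = 0.00121) and 4.25-fold in TL3D (log2 change −1.91 ± 0.13, adjusted p = 2.25e-05). The HOG1-named PCI_1411 had 12.6 and 10.3 FPKM in TL3D, 3.04 and 3.002 FPKM in TL2D, and 27.7 and 25.6 FPKM in CK2D. The 3 groups did not overlap, with TL2D lowest and CK2D highest. PCI_1411 fell 8.83-fold in TL2D relative to CK2D (log2 change −2.78 ± 0.12, adjusted p = 0.000489), rose 3.78-fold in TL3D relative to TL2D (log2 change 1.62 ± 0.15, adjusted p = 0.016) and was still lower in TL3D than in CK2D (log2 change −1.16 ± 0.12, adjusted p = 0.000192).

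Genes named after wis1 and srk1, kinases above and below hog1 in that branch, fell too in TL2D against CK2D. PCI_0100, named after wis1, the fission yeast kinase that activates the stress MAP kinase, had 56.1 ± 1.81 FPKM in TL2D, against 105 ± 7.75 FPKM in CK2D and fell (log2 change −0.89 ± 0.10, adjusted p = 0.00387). PCI_5830, named after srk1, a kinase downstream of the stress MAP kinase in fission yeast, had 44.4 and 48 FPKM in TL3D, 27.9 and 47.6 FPKM in TL2D, and 99.3 and 91.8 FPKM in CK2D. All 4 leaf libraries lay below the plates, with a 2.53-fold fall in TL2D (log2 change −1.36 ± 0.26, adjusted p = 0.0143) and a 2.07-fold fall in TL3D (log2 change −1.03 ± 0.09, adjusted p = 8.79e-05). The other srk1-named gene, PCI_9393, had 15.8 and 10.6 FPKM in TL3D, 1.21 and 2.96 FPKM in TL2D, and 8.21 and 8.12 FPKM in CK2D. Here TL2D was lowest and TL3D highest, without overlap. PCI_9393 fell 3.92-fold in TL2D relative to CK2D (6.76-fold without TL2D replicate 2, log2 change −1.63 ± 0.31, adjusted p = 0.0135) and rose 6.35-fold in TL3D relative to TL2D (10.96-fold without TL2D replicate 2, log2 change 2.24 ± 0.35, adjusted p = 0.0301). In TL3D it was higher than in CK2D (log2 change 0.61 ± 0.17, adjusted p = 0.0194).

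Genes named after kinases of the cell integrity and mating branches rose, fell or did not pass, depending on the gene and the day. PCI_1754, named after spm1, the cell integrity MAP kinase of fission yeast, had 101 and 98.7 FPKM in TL3D, 110.00 and 121 FPKM in TL2D, and 76.3 and 79.8 FPKM in CK2D. It was highest in TL2D and lowest in CK2D, and rose in TL2D (log2 change 0.56 ± 0.09, adjusted p = 0.0104) and in TL3D (log2 change 0.35 ± 0.08, adjusted p = 0.00829) relative to CK2D. PCI_2342, named after FUZ7, a MAP kinase kinase that the corn smut *Ustilago maydis* uses in mating and filament growth, had 41.3 ± 0.169 FPKM in TL2D, against 30.2 ± 1.31 FPKM in CK2D and rose in TL2D (log2 change 0.44 ± 0.09, adjusted p = 0.0177). PCI_1826, a MAP kinase with no further name, had 128 ± 2.86 FPKM in TL2D, against 103 ± 6.45 FPKM in CK2D and rose (log2 change 0.31 ± 0.09, adjusted p = 0.0445). These 2 did not pass in TL3D against CK2D (log2 change 0.03 ± 0.10, adjusted p = 0.827 for PCI_2342, log2 change 0.05 ± 0.09, adjusted p = 0.668 for PCI_1826). The upstream kinases CLA4 (PCI_4396) and ste20 (PCI_9168), both of the p21-activated family that links small GTPases to MAP kinases, did not pass in TL2D against CK2D at adjusted p of 0.946 and 0.275. Genes named after byr2, a MAP kinase kinase kinase of fission yeast mating, had 15.5 ± 1.07 FPKM in TL3D, 18.3 ± 2.74 FPKM in TL2D and 17.5 ± 0.686 FPKM in CK2D in the case of PCI_8023, and 5.56 ± 0.526 FPKM in TL3D, 7.65 ± 0.8005 FPKM in TL2D and 8.77 ± 1.2 FPKM in CK2D in the case of PCI_8307. PCI_8307 fell in TL3D relative to CK2D (log2 change −0.57 ± 0.14, adjusted p = 0.00932), and PCI_8023 did not pass there (log2 change −0.16 ± 0.10, adjusted p = 0.215).

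At day 3, in TL3D against CK2D, 2 of the 13 MAP kinase cascade genes rose (15.4%) and 6 fell (46.2%), against 28.1% and 30.2% of all genes tested. In TL2D against CK2D only 3 and 2 of the falls passed without CK2D replicate 1 or 2 and the 3 rises were lost, with 7 and 8 genes of the list at an unadjusted p under 0.05 in limma. Cascade genes outside the name rule showed both directions in TL2D against CK2D. The MAP kinase kinase gene pek1 (PCI_8371), which acts above the cell integrity kinase in fission yeast, had 80.2 ± 17.4 FPKM in TL2D, against 42.2 ± 2.07 FPKM in CK2D and rose (log2 change 0.89 ± 0.17, adjusted p = 0.0138). The MAP kinase kinase kinase gene wis4 (PCI_1603) of the stress branch fell (log2 change −0.41 ± 0.11, adjusted p = 0.0302). Another MAP kinase kinase kinase gene, mkh1 (PCI_5340), did not pass in limma (log2 change −0.25 ± 0.13, adjusted p = 0.149). In TL3D relative to CK2D mkh1 fell (log2 change −0.40 ± 0.11, adjusted p = 0.0158). Of 6 scaffolds and transcription factors of these cascades 3 rose, and the stress factor gene MSN2 (PCI_4911) had 34.1 ± 7.16 FPKM in TL2D, against 10.6 ± 3.19 FPKM in CK2D (log2 change 1.62 ± 0.26, adjusted p = 0.00863). The cell surface sensor gene MSB2 (PCI_6132) and the mating factor gene steA (PCI_7708) rose in TL2D relative to CK2D too. Their fitted log2 changes were 0.60 ± 0.10 and 0.43 ± 0.11, at adjusted p of 0.0091 and 0.0306.

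**Figure D3:**
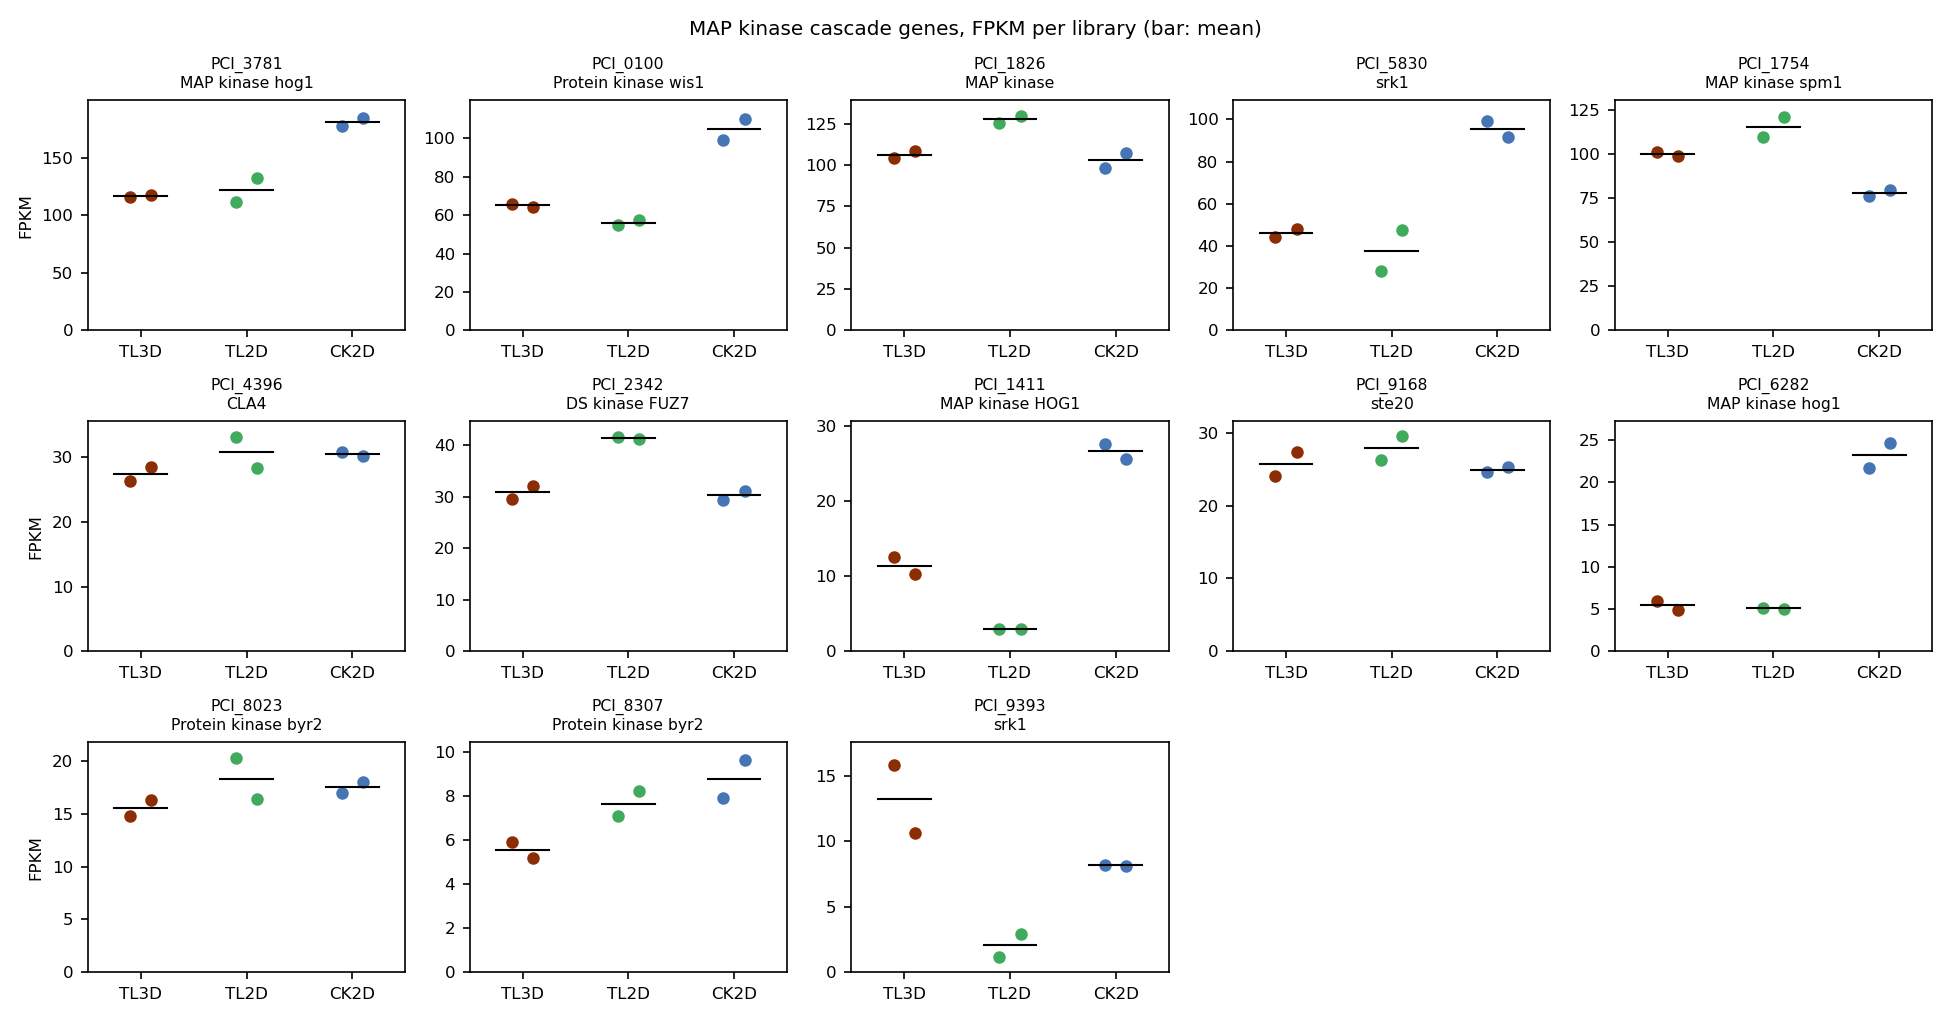
FPKM of the 13 MAP kinase cascade genes in each library of TL3D, TL2D and CK2D, each panel on its own linear axis from 0, points for libraries and bars for means. The hog1-named genes PCI_3781 and PCI_6282 are lower in both leaf groups than in CK2D, and PCI_1411 and PCI_9393 are lowest in TL2D.

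All 3 PKA genes fell on leaves at day 2, where 29.4% of all genes tested fell. PKA is held inactive by its regulatory subunit until cAMP binds. The regulatory subunit gene PCI_5254, the most abundant of all kinase and phosphatase genes, had 166 and 157 FPKM in TL3D, 120.03 and 118 FPKM in TL2D, and 196 and 202 FPKM in CK2D. TL2D was the lowest group and CK2D the highest, with no overlap. Its level fell in TL2D (log2 change −0.74 ± 0.08, adjusted p = 0.00394) and in TL3D (log2 change −0.30 ± 0.08, adjusted p = 0.015) relative to CK2D, and the fall in TL3D was lost without CK2D replicate 2 (adjusted p = 0.0609) or TL3D replicate 2 (adjusted p = 0.0796). Between the leaf days it did not pass (log2 change 0.44 ± 0.09, adjusted p = 0.0531). The catalytic subunit gene PCI_1095 (type 2) had 85.4 and 79.3 FPKM in TL3D, 54.4 and 57.9 FPKM in TL2D, and 90.7 and 91.9 FPKM in CK2D, lowest in TL2D without overlap. It fell in TL2D relative to CK2D (log2 change −0.69 ± 0.09, adjusted p = 0.00515) and rose in TL3D relative to TL2D (log2 change 0.54 ± 0.10, adjusted p = 0.0419). The catalytic subunit 3 gene PCI_7766 had 35.6 and 30.9 FPKM in TL3D, 18.5 and 19.6 FPKM in TL2D, and 29.2 and 29.5 FPKM in CK2D, and again TL2D was lowest. It fell in TL2D relative to CK2D (log2 change −0.60 ± 0.10, adjusted p = 0.00933) and rose 1.75-fold in TL3D relative to TL2D (log2 change 0.77 ± 0.12, adjusted p = 0.0319). Neither catalytic gene passed in TL3D against CK2D (log2 change −0.15 ± 0.09, adjusted p = 0.173 for PCI_1095, log2 change 0.17 ± 0.10, adjusted p = 0.189 for PCI_7766). The 3 falls at day 2 were lost in limma without CK2D replicate 1 or 2, at adjusted p up to 0.0908 and 0.0954, with all 3 genes at an unadjusted p under 0.05. The adenylate cyclase gene (PCI_2041), whose product makes cAMP, and the cyclase-associated protein gene (PCI_3801) did not pass in TL2D against CK2D, at adjusted p of 0.179 and 0.544.

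**Figure D4:**
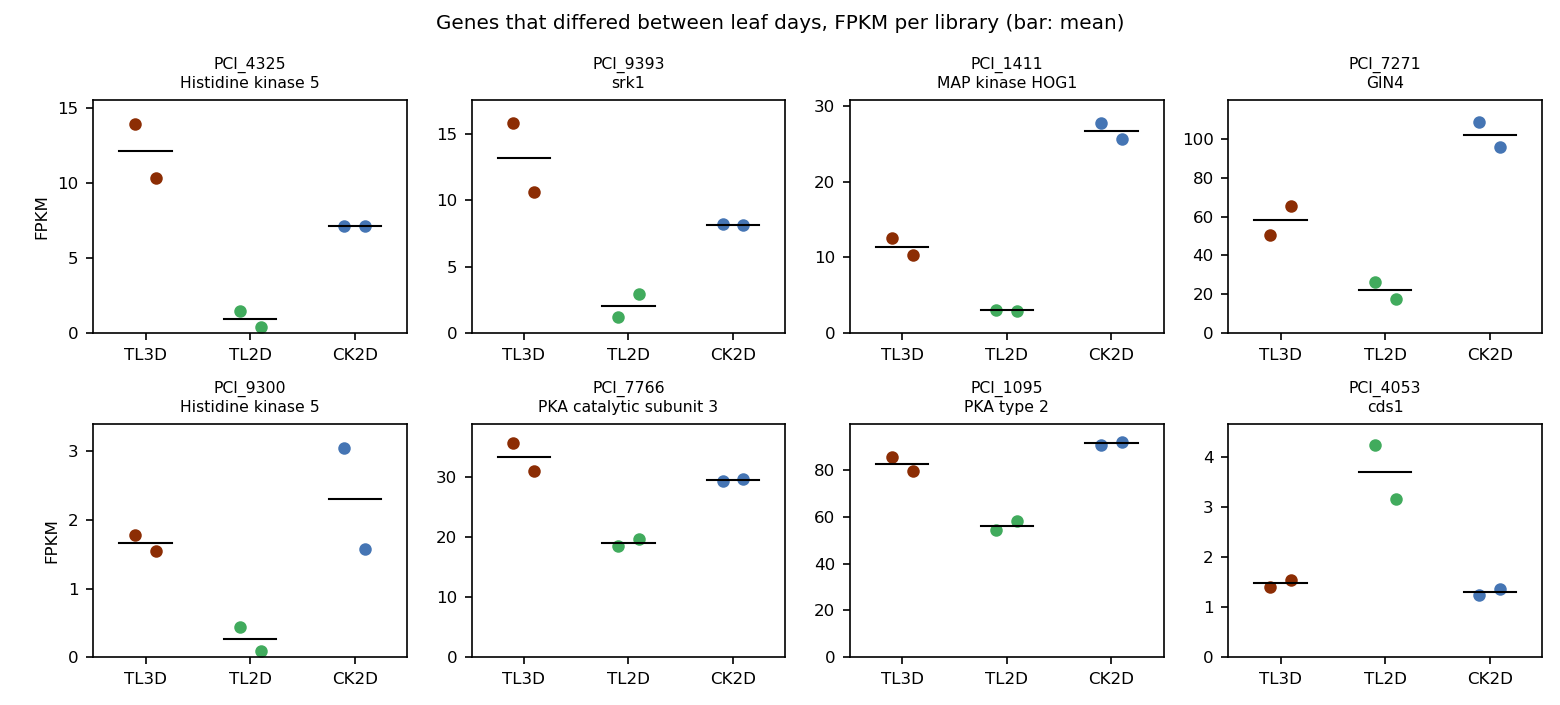
FPKM of the 8 kinase genes that passed the test in TL3D against TL2D, in each library of TL3D, TL2D and CK2D, each panel on its own linear axis from 0, points for libraries and bars for means. TL2D is the lowest group for 7 genes and the highest for PCI_4053.

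Other kinases of the AGC family, to which PKA belongs, moved in both directions. Of 7 tested in TL2D against CK2D, 2 rose (28.6%) and 3 fell (42.9%), against 24.8% and 29.4% of all genes tested. PCI_6745, named after gad8, the fission yeast target of TOR complex 2, had 66.3 and 68.5 FPKM in TL3D, 76.8 and 85.3 FPKM in TL2D, and 53.4 and 51.8 FPKM in CK2D, highest in TL2D, and rose in TL2D (log2 change 0.61 ± 0.10, adjusted p = 0.00867) and in TL3D (log2 change 0.35 ± 0.08, adjusted p = 0.00941) relative to CK2D. PCI_4755, named after cot-1, which *N. crassa* needs for hyphal tip growth, had 74.9 ± 3.63 FPKM in TL2D, against 55.3 ± 2.5 FPKM in CK2D and rose in TL2D (log2 change 0.43 ± 0.09, adjusted p = 0.0191). It was chosen for naming after its values were seen. PCI_3327, named after nrc-2, which holds back conidiation in *N. crassa*, had 33.9 and 37.1 FPKM in TL3D, 35.3 and 29.98 FPKM in TL2D, and 51 and 54 FPKM in CK2D and was lower in all leaf libraries. It fell in TL2D (log2 change −0.67 ± 0.12, adjusted p = 0.0112) and in TL3D (log2 change −0.55 ± 0.09, adjusted p = 0.00195) relative to CK2D. PCI_9350, named after RIM15, a quiescence kinase of budding yeast, had 16 ± 2.39 FPKM in TL3D, 17.1 ± 0.375 FPKM in TL2D and 24 ± 0.593 FPKM in CK2D and fell in TL3D relative to CK2D (log2 change −0.56 ± 0.12, adjusted p = 0.00591). The 5 calls at day 2 were lost in limma without CK2D replicate 1 or 2, at adjusted p up to 0.128 and 0.152, with 4 and 2 genes at an unadjusted p under 0.05.

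Kinases that answer nutrients fell where they changed at day 2. Of 12 tested TOR, SNF1 and nutrient kinase genes, 5 fell in TL2D against CK2D (41.7%, against 29.4% of all genes tested) and the other 7 did not pass. The largest fall was in PCI_8028, named after ksp1, a kinase of the PKA and TOR network in budding yeast, with 107 and 117 FPKM in TL3D, 105 and 93.3 FPKM in TL2D, and 153 and 161 FPKM in CK2D. Every leaf library lay below the plates, and it fell in TL2D (log2 change −0.66 ± 0.10, adjusted p = 0.00781) and in TL3D (log2 change −0.49 ± 0.09, adjusted p = 0.0027) relative to CK2D. The hal4 genes, named after a kinase that regulates ion transport in yeasts, were the 2 rises of the list in TL3D against CK2D (16.7%, against 28.1% of all genes tested). PCI_9177 had 12.9 ± 0.546 FPKM in TL3D, 10.9 ± 1.15 FPKM in TL2D and 10.03 ± 0.929 FPKM in CK2D (log2 change 0.33 ± 0.11, adjusted p = 0.0378), and PCI_4389, named here after its values were seen, had 135 ± 5.49 FPKM in TL3D, 122 ± 10.8 FPKM in TL2D and 114 ± 3.32 FPKM in CK2D (log2 change 0.25 ± 0.08, adjusted p = 0.0347). PCI_9177 passed in 1 of the 4 fits with a library left out and PCI_4389 in 0, at adjusted p from 0.0653 to 0.142 in limma. Leaving out CK2D replicate 1 or 2 ended the 5 calls at day 2, at adjusted p up to 0.192 and 0.224, with 1 and 2 genes of the list at an unadjusted p under 0.05 in limma. Among 13 genes listed by name as partners and regulators of TOR, 3 rose (23.1%) and 6 fell (46.2%) in TL2D against CK2D. Of all genes tested, 24.8% rose and 29.4% fell there. The TOR complex 1 subunit gene mip1 (PCI_5482) had 15.4 ± 1.11 FPKM in TL2D, against 26.5 ± 0.0111 FPKM in CK2D and fell (log2 change −0.75 ± 0.11, adjusted p = 0.00694). The FK506-binding protein 4 gene (PCI_2044) had 233 ± 31 FPKM in TL2D, against 108 ± 0.557 FPKM in CK2D and rose (log2 change 1.09 ± 0.12, adjusted p = 0.00391). It was listed for the FK506-binding part of its name alone, and a link to TOR was not tested. The FK506-binding protein 1A (PCI_1574) and 1 (PCI_9107) genes did not pass in TL2D against CK2D, at adjusted p of 0.0927 and 0.0591. The carbon repressor gene creA (PCI_1056), a target of the SNF1 pathway, did not pass (log2 change −0.16 ± 0.09, adjusted p = 0.209).

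Calcium and calmodulin-dependent kinases held 1 rise and 1 fall among 5 tested in TL2D against CK2D. Both shares were below those of all genes tested, of which 24.8% rose and 29.4% fell. PCI_8844, cmkA, had 56.6 and 54.1 FPKM in TL3D, 69.1 and 76.6 FPKM in TL2D, and 43.3 and 45.2 FPKM in CK2D, highest in TL2D, and rose in TL2D (log2 change 0.71 ± 0.10, adjusted p = 0.00649) and in TL3D (log2 change 0.32 ± 0.09, adjusted p = 0.0169) relative to CK2D. PCI_8181, named after ssp1, a calmodulin kinase kinase of fission yeast, had 20.8 and 24.3 FPKM in TL3D, 17.4 and 15.3 FPKM in TL2D, and 36.4 and 34.6 FPKM in CK2D. It was lowest in TL2D and highest in CK2D, and fell 2.17-fold in TL2D (log2 change −1.07 ± 0.11, adjusted p = 0.0036) and 1.58-fold in TL3D (log2 change −0.64 ± 0.11, adjusted p = 0.00191). In TL2D against CK2D both calls were lost without CK2D replicate 1, at adjusted p up to 0.0708, and the rise was lost without CK2D replicate 2, at an adjusted p of 0.0635. The catalytic subunit gene of calcineurin (PCI_0254), the calcium-activated phosphatase, had 30.3 and 33.9 FPKM in TL3D, 35 and 35 FPKM in TL2D, and 42.4 and 39.6 FPKM in CK2D. Its fitted log2 change did not pass in TL2D against CK2D (log2 change −0.22 ± 0.09, adjusted p = 0.101), and it fell in TL3D relative to CK2D (log2 change −0.35 ± 0.10, adjusted p = 0.0197). That fall was lost without TL3D replicate 1 (adjusted p = 0.104) or CK2D replicate 1 (adjusted p = 0.0853). The calcipressin gene (PCI_2012), whose product binds calcineurin, had 149 ± 26.7 FPKM in TL3D, 427 ± 403 FPKM in TL2D and 104 ± 1.52 FPKM in CK2D and rose in TL3D relative to CK2D (log2 change 0.50 ± 0.12, adjusted p = 0.0111).

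The largest rises on leaves included the RIO kinases, which act in maturation of the small ribosomal subunit. The rio1 gene PCI_8719 had 35.8 and 31.4 FPKM in TL3D, 48.2 and 51.7 FPKM in TL2D, and 20.8 and 26.1 FPKM in CK2D. All leaf libraries exceeded the plates, TL2D most. It rose 2.13-fold in TL2D (log2 change 1.07 ± 0.14, adjusted p = 0.00579) and 1.43-fold in TL3D (log2 change 0.51 ± 0.13, adjusted p = 0.0133) relative to CK2D. The rio2 gene PCI_3307 had 35 and 32.7 FPKM in TL3D, 41.8 and 43.2 FPKM in TL2D, and 20.8 and 20.4 FPKM in CK2D, in the same order of groups. It rose 2.06-fold in TL2D (log2 change 1.01 ± 0.09, adjusted p = 0.00251) and 1.64-fold in TL3D (log2 change 0.69 ± 0.09, adjusted p = 0.0007) relative to CK2D. Both calls in TL2D against CK2D held with any library left out. PCI_8719 did not pass in TL3D against CK2D without TL3D replicate 1 (adjusted p = 0.094) or CK2D replicate 1 (adjusted p = 0.0524).

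The largest rise of all was in PCI_5343, a gene annotated only with a protein kinase-like domain. It had 15.7 and 14 FPKM in TL3D, 14.8 and 19.9 FPKM in TL2D, and 1.54 and 1.81 FPKM in CK2D. Both plate libraries were under 2 FPKM and all leaf libraries over 13 FPKM. PCI_5343 rose 10.4-fold in TL2D (log2 change 2.77 ± 0.19, adjusted p = 0.00137) and 8.87-fold in TL3D (log2 change 2.57 ± 0.13, adjusted p = 5.26e-06) relative to CK2D. PCI_0601, with a protein kinase domain and no further name, had 12.6 and 12.8 FPKM in TL3D, 15.6 and 24.4 FPKM in TL2D, and 8.61 and 9.06 FPKM in CK2D and was highest in TL2D. It rose 2.26-fold in TL2D (log2 change 1.06 ± 0.23, adjusted p = 0.0195) and 1.44-fold in TL3D (log2 change 0.48 ± 0.10, adjusted p = 0.00626) relative to CK2D. Among the 21 tested kinases with no assigned pathway, these were the 2 rises in TL2D against CK2D (9.52%), and 8 genes fell (38.1%). Of all genes tested, 24.8% rose and 29.4% fell there. The largest of those falls was in PCI_2489, which bears the name of PknK, a kinase of mycobacteria, with 51.6 and 48.3 FPKM in TL3D, 26.6 and 14.2 FPKM in TL2D, and 78 and 76.1 FPKM in CK2D. It was lowest in TL2D and fell 3.78-fold in TL2D (log2 change −1.93 ± 0.30, adjusted p = 0.00836) and 1.54-fold in TL3D (log2 change −0.62 ± 0.09, adjusted p = 0.000821) relative to CK2D. PCI_4597, named after fhkC, a kinase of *Dictyostelium*, had 4.47 ± 0.0898 FPKM in TL3D, 4.76 ± 0.0256 FPKM in TL2D and 10.1 ± 2.85 FPKM in CK2D and fell in TL3D relative to CK2D (log2 change −0.99 ± 0.18, adjusted p = 0.00265). PCI_5343 alone of these 10 passed in TL2D against CK2D when CK2D replicate 1 or 2 was left out, with 5 and 5 genes of the list at an unadjusted p under 0.05.

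**Figure D5:**
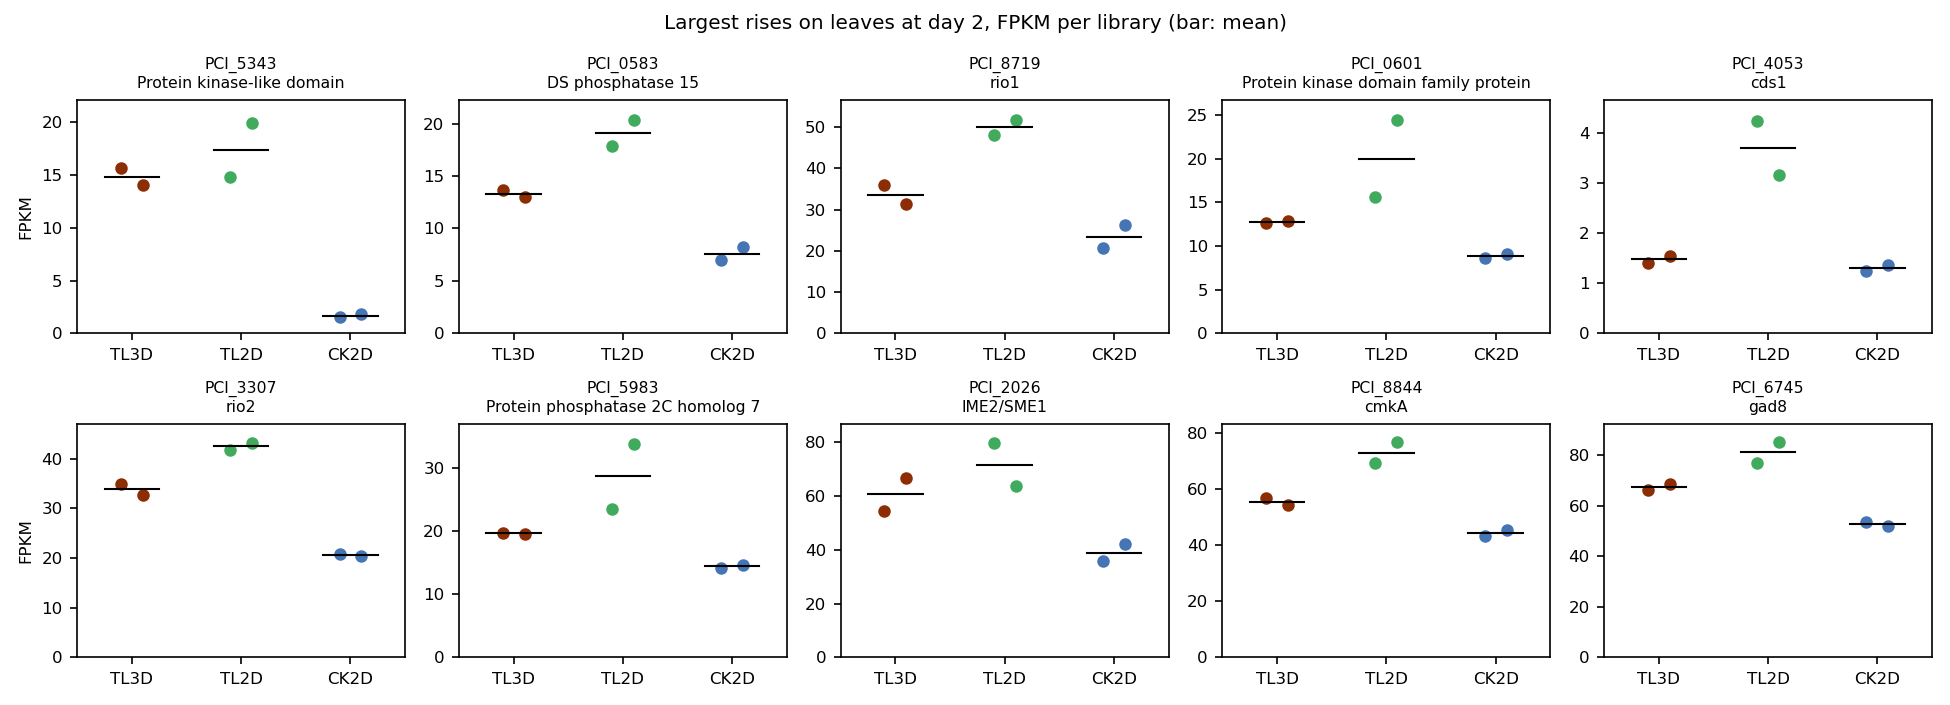
FPKM of the 10 kinase and phosphatase genes with the largest fitted rise in TL2D against CK2D, in each library of TL3D, TL2D and CK2D, each panel on its own linear axis from 0, points for libraries and bars for means. CK2D is the lowest group by mean in each panel, and the TL3D libraries of PCI_4053 lie near its level.

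Checkpoint, mitosis and meiosis kinases held 2 rises and 8 falls among 16 tested in TL2D against CK2D. The share of rises was below the 24.8% of all genes tested, and the share of falls was above their 29.4%. PCI_2026, named after IME2, a meiosis kinase of budding yeast, had 54.6 and 66.8 FPKM in TL3D, 79.5 and 63.6 FPKM in TL2D, and 35.8 and 42.1 FPKM in CK2D. It was highest in TL2D and lowest in CK2D, and rose in TL2D (log2 change 0.86 ± 0.15, adjusted p = 0.012) and in TL3D (log2 change 0.62 ± 0.13, adjusted p = 0.00476). PCI_4053, named after cds1, a replication checkpoint kinase of fission yeast, had 1.41 and 1.56 FPKM in TL3D, 4.25 and 3.17 FPKM in TL2D, and 1.24 and 1.36 FPKM in CK2D. It was high in TL2D alone. PCI_4053 rose in TL2D relative to CK2D (log2 change 1.02 ± 0.18, adjusted p = 0.0117) and fell 2.5-fold in TL3D relative to TL2D (log2 change −0.91 ± 0.18, adjusted p = 0.0465), while TL3D and CK2D did not differ past the test (log2 change 0.11 ± 0.16, adjusted p = 0.574). PCI_0925, named after mph1, a spindle checkpoint kinase, had 44.7 and 53 FPKM in TL3D, 39.8 and 34.8 FPKM in TL2D, and 72.9 and 68.7 FPKM in CK2D and fell in TL2D relative to CK2D (log2 change −0.91 ± 0.11, adjusted p = 0.00462). PCI_8907, the haspin homolog hrk1, which marks chromatin at mitosis, had 8.81 and 7.74 FPKM in TL3D, 9.31 and 6.1 FPKM in TL2D, and 14.1 and 16 FPKM in CK2D. The leaf libraries lay below the plates, and it fell in TL3D relative to CK2D (log2 change −0.79 ± 0.12, adjusted p = 0.00119). The list held 1 rise and 8 falls among 16 tested in TL3D against CK2D, where 28.1% of all genes tested rose and 30.2% fell. The 10 calls in TL2D against CK2D were lost in limma without CK2D replicate 1 or 2, at adjusted p up to 0.178 and 0.19, with 7 and 6 genes at an unadjusted p under 0.05.

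Polarity, septum and trafficking kinases held 3 falls among 9 tested in TL2D against CK2D (33.3%, against 29.4% of all genes tested). PCI_7271, named after GIN4, which organises the septin ring at the bud neck of budding yeast, had 50.6 and 65.6 FPKM in TL3D, 26.5 and 17.7 FPKM in TL2D, and 108 and 95.7 FPKM in CK2D. TL2D was lowest, CK2D highest, and the groups did not overlap. It fell 4.61-fold in TL2D relative to CK2D (log2 change −2.18 ± 0.21, adjusted p = 0.00286), rose 2.63-fold in TL3D relative to TL2D (log2 change 1.37 ± 0.24, adjusted p = 0.0356) and stayed lower in TL3D than in CK2D (log2 change −0.81 ± 0.13, adjusted p = 0.00179). PCI_3844, named after MARK1, an animal kinase of microtubules and polarity, had 57.8 and 68.9 FPKM in TL3D, 49.9 and 46.6 FPKM in TL2D, and 40.5 and 43.7 FPKM in CK2D. It was highest in TL3D, and rose in TL3D relative to CK2D (log2 change 0.57 ± 0.11, adjusted p = 0.00349) without passing in TL2D against CK2D (log2 change 0.19 ± 0.10, adjusted p = 0.158). PCI_7271 alone of the 3 falls passed without CK2D replicate 1 or 2, with 1 gene of the list at an unadjusted p under 0.05 each time. Among 11 kinases of splicing and transcription 3 fell in TL2D against CK2D (27.3%, near the 29.4% of all genes tested). PCI_2155, named after lkh1, a LAMMER kinase of fission yeast, had 24.2 ± 1.88 FPKM in TL2D, against 36.2 ± 0.421 FPKM in CK2D and fell (log2 change −0.56 ± 0.10, adjusted p = 0.0129). PCI_6828, named after ppk23 of fission yeast, fell in TL3D relative to CK2D (log2 change −0.64 ± 0.12, adjusted p = 0.00329). The 3 falls at day 2 were lost without CK2D replicate 1 or 2 in limma, at adjusted p up to 0.218 and 0.173, with 3 and 2 genes of the list at an unadjusted p under 0.05.

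Phosphatases held 3 rises (7.89%) and 11 falls (28.9%) among 38 tested in TL2D against CK2D, against 24.8% and 29.4% of all genes tested. The share of falls was near that of all genes. The largest changes were in the tyrosine and dual-specificity class. There 1 of 9 rose (11.1%) and 4 fell (44.4%). PCI_9000, a tyrosine phosphatase with no further name, had 1.64 and 1.75 FPKM in TL3D, 1.03 and 3.38 FPKM in TL2D, and 17.8 and 20.2 FPKM in CK2D. The plate libraries were high and the leaf libraries low, although the TL2D libraries lay over 2-fold apart. It fell 8.61-fold in TL2D (log2 change −2.74 ± 0.39, adjusted p = 0.00691), 5.62-fold and 18.4-fold without TL2D replicate 1 and 2, and 11.2-fold in TL3D (log2 change −2.89 ± 0.12, adjusted p = 2.39e-06) relative to CK2D. PCI_3311, named after PPS1, a dual-specificity phosphatase of budding yeast, had 39.7 and 40.8 FPKM in TL3D, 18.4 and 8.34 FPKM in TL2D, and 51.3 and 52.9 FPKM in CK2D. Both TL2D libraries were lowest and over 2-fold apart. PCI_3311 fell 3.89-fold in TL2D relative to CK2D (6.25-fold without TL2D replicate 1, log2 change −1.98 ± 0.36, adjusted p = 0.0125). Between the leaf days it did not pass (log2 change 1.62 ± 0.35, adjusted p = 0.057). PCI_0583, dual specificity phosphatase 15 after an animal gene, had 13.6 and 13 FPKM in TL3D, 17.8 and 20.3 FPKM in TL2D, and 7.02 and 8.19 FPKM in CK2D, highest in TL2D. It rose 2.51-fold in TL2D (log2 change 1.22 ± 0.14, adjusted p = 0.00415) and 1.75-fold in TL3D (log2 change 0.74 ± 0.12, adjusted p = 0.0015) relative to CK2D. The class held 1 rise (11.1%) and 6 falls (66.7%) in TL3D against CK2D, against 28.1% and 30.2% of all genes tested. In the day 2 comparison the 5 calls were lost without CK2D replicate 1 in limma, at adjusted p up to 0.0847, with 5 genes at an unadjusted p under 0.05, and without CK2D replicate 2 the rise in PCI_0583 alone passed.

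The PP2C class held 1 rise (14.3%) and 2 falls (28.6%) among 7 tested in TL2D against CK2D, against 24.8% and 29.4% of all genes tested. PCI_5983, the mitochondrial homolog 7, had 19.7 and 19.5 FPKM in TL3D, 23.4 and 33.8 FPKM in TL2D, and 14.2 and 14.7 FPKM in CK2D. It was highest in TL2D, and rose 1.98-fold in TL2D (log2 change 0.92 ± 0.20, adjusted p = 0.0185) and 1.36-fold in TL3D (log2 change 0.42 ± 0.10, adjusted p = 0.0081) relative to CK2D. PCI_6733, a homolog of a fission yeast PP2C gene, had 9.66 and 10.6 FPKM in TL3D, 11.2 and 10.6 FPKM in TL2D, and 21.5 and 17.7 FPKM in CK2D, lower in all leaf libraries. The gene fell in TL2D (log2 change −0.78 ± 0.14, adjusted p = 0.0114) and in TL3D (log2 change −0.88 ± 0.12, adjusted p = 0.000862) relative to CK2D. The abundant homolog 3, PCI_3515, did not pass in TL2D (log2 change 0.06 ± 0.08, adjusted p = 0.595) or in TL3D (log2 change −0.20 ± 0.08, adjusted p = 0.0692) against CK2D. The 3 calls at day 2 in this class were lost in limma without CK2D replicate 1 or 2, at adjusted p up to 0.115 and 0.134, with 3 and 2 genes at an unadjusted p under 0.05.

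The main catalytic genes of the PP2A and PP1 classes did not pass. Of 12 tested PP2A and PP2A-like genes 2 fell in TL2D against CK2D (16.7%, against 29.4% of all genes tested), both activators of PP2A. PCI_3727, activator 2, had 29.1 and 26.6 FPKM in TL3D, 26.5 and 20.5 FPKM in TL2D, and 35.3 and 38.7 FPKM in CK2D. Its level fell in TL2D (log2 change −0.64 ± 0.15, adjusted p = 0.0253) and in TL3D (log2 change −0.40 ± 0.10, adjusted p = 0.0116) relative to CK2D. The PP2A catalytic gene PCI_2812 gave a fitted log2 change of 0.11 ± 0.10 in TL2D against CK2D and of 0.04 ± 0.09 in TL3D against CK2D, and the scaffold gene PCI_6567 gave 0.04 ± 0.08 and −0.10 ± 0.09. Of 5 PP1 genes 2 fell in TL2D against CK2D (40.0%, against 29.4% of all genes tested). PCI_3416, named PP1-beta and expressed far below the main PP1 gene, had 3.46 and 3.98 FPKM in TL3D, 5.2 and 3.55 FPKM in TL2D, and 7.33 and 10.3 FPKM in CK2D, lower in all leaf libraries. It fell 2.02-fold in TL2D (log2 change −0.87 ± 0.24, adjusted p = 0.0373) and 2.37-fold in TL3D (log2 change −1.04 ± 0.17, adjusted p = 0.00163) relative to CK2D. PCI_4769, the abundant PP1 gene, had 120.1 ± 12.1 FPKM in TL3D, 143 ± 0.81 FPKM in TL2D and 120.3 ± 16 FPKM in CK2D and did not pass in TL2D against CK2D (log2 change 0.25 ± 0.12, adjusted p = 0.14), named here after its values were seen. Of the 4 remaining phosphatases, PCI_8051, protein phosphatase T, a PP5-type enzyme, had 64.6 ± 5.18 FPKM in TL2D, against 44.7 ± 2.05 FPKM in CK2D and rose in TL2D (log2 change 0.52 ± 0.10, adjusted p = 0.0154), and PCI_6693, a homolog of a fission yeast gene, had 28.5 ± 1.05 FPKM in TL2D, against 36.3 ± 0.218 FPKM in CK2D and fell (log2 change −0.34 ± 0.09, adjusted p = 0.0354). When CK2D replicate 1 or 2 was left out none of the calls in these 3 classes passed limma's test at day 2, at adjusted p up to 0.213 and 0.207, with 4 genes and 1 gene at an unadjusted p under 0.05. Between the leaf days 0 of 37 tested phosphatases passed in limma, with 5 at an unadjusted p under 0.05 and 3 of 38 under an FDR of 0.05 in the authors' deposited table.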

How the data were processed

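Total RNA of mycelium was sequenced in 6 libraries, 2 per group, and the authors deposited 2 tables with one row per gene. Per the file headers, each table gives FPKM for each replicate, which the authors made before deposit. The submitters' processing notes name Cufflinks without a version. The sources used here give neither the aligner nor the genome build or annotation. Per the file headers the authors also deposited a fold change, which is a ratio of group means, with its log2. A further deposited column, the authors' FDR, holds adjusted p-values from a test that the sources used here do not name. Low FPKM values showed no steps of whole reads, so read depth is unknown, no count test was run and no limit can be set for a value of 0.

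FPKM were used as deposited. A gene entered a comparison if 2 or more of its 4 libraries reached 1 FPKM, and was tested two-sided on log2(FPKM + 1) with limma 3.58.1 (eBayes with trend, R 4.3.3). Each comparison was fitted over its 4 libraries and all its genes, adjustment followed Benjamini and Hochberg, and genes were called at an adjusted p under 0.05. The procedure was run on simulated data with equal noise in both groups and changes planted only in genes well above the filter. That setting does not cover the wider spread of TL2D or changes in genes near the filter. Gene names were sorted into 17 role groups by search terms, and 28 genes were reassigned by hand after their names were read. Members, role groups, the 43 partner genes and the tests were chosen with earlier results of these data known. The genes named are, per comparison, the 10 largest called rises and falls among genes with a mean of at least 1 FPKM, the largest called rise and fall of each role group, every tested histidine kinase, MAP kinase cascade, PKA and calcineurin gene, and the 5 most abundant genes. For each partner group the rule was the largest called rise and fall, but not all of these are given, and other partner genes given were picked after their values were seen. Left out, for instance, were 2 genes in TL2D against CK2D. The glycogen synthase kinase 1 gene PCI_4243 fell (log2 change −0.59 ± 0.09, adjusted p = 0.00781 in limma). The 14-3-3 gene PCI_8136 rose (log2 change 0.39 ± 0.11, adjusted p = 0.0399). The naming rule gave 64 kinase and phosphatase genes. Alternatives were a fit over all 6 libraries, upper-quartile or median log ratio scaling, a pseudocount of 0.1, tests without the filter, the replicate number as a block, leaving out each library in turn, thresholds of 0.01 and of 2-fold, and the authors' FDR. No sequences were used here, because 0 of the genes matched the 11657 genes of the RefSeq table by gene number.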

Additional observations from a re-analysis of the deposited data

How the results depend on the processing

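No named call changed direction under any alternative. Of genes that had not passed some did, such as PCI_3118, at a log2 change of −0.12 without TL2D replicate 1, against 0.32 with all libraries in TL2D against CK2D. Of the named calls, 44 of 50 in TL2D against CK2D, 4 of 8 in TL3D against TL2D and 37 of 46 in TL3D against CK2D still passed in every alternative that kept all libraries and the same threshold. In TL2D against CK2D, 6 rose and 21 fell at an adjusted p under 0.01, 6 and 17 at a 2-fold limit, and the median log2 change was −0.22 under median log ratio scaling. With 1 library left out there were 3 to 21 rises and 5 to 69 falls, and the median ran from −0.36 to −0.22. In TL3D against TL2D the counts of rises and falls were 11 and 7 in a fit over all 6 libraries, 14 and 5 by the authors' deposited FDR and 0 and 0 at an adjusted p under 0.01. The single fall, PCI_4053, was lost with a pseudocount of 0.1, with no filter, at a 2-fold limit and under the replicate block (0 falls each). With 1 library left out, rises ran from 0 to 32, falls from 0 to 17 and the median from 0.0011 to 0.090. In TL3D against CK2D, 9 rose in the fit over all 6 libraries, 1 rose and 9 fell at a 2-fold limit, 37 fell at an adjusted p under 0.01, and the median was −0.12 under median log ratio scaling. With 1 library left out it ran from −0.20 to −0.18. The lower counts without a CK2D or TL3D library in comparisons with TL2D come with TL2D as the only group that still has a pair of libraries, by construction.

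Replicates share only a number, with 2 pairs per comparison. Deviations of same-numbered libraries correlated at −0.0796 in TL2D against CK2D, 0.176 in TL3D against TL2D and −0.247 in TL3D against CK2D, across genes, which are not independent replicates. With the replicate block, 13 rose and 44 fell in TL2D against CK2D, 8 and 0 in TL3D against TL2D, and 13 and 52 in TL3D against CK2D. A block with crossed numbers, chosen after seeing the data, gave 17 and 66 in TL3D against CK2D. With 2 libraries per group and unknown read depth, small changes of genes near 1 FPKM could not be resolved.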

Other observations

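Some gene numbers next to those of changed kinases moved with them, and others moved the other way. In TL2D against CK2D 54.2% of all genes tested were called, and no test of neighbours was run. Numbers follow each other in the tables, genome positions were not used here, and these genes were chosen after their values were seen. PCI_1410, the number before the HOG1-named PCI_1411, is named after atf21, a stress transcription factor of fission yeast, and had 208 and 139 FPKM in TL3D, 19.7 and 16.6 FPKM in TL2D, and 116 and 137 FPKM in CK2D. It was lowest in TL2D, like PCI_1411, and fell in TL2D relative to CK2D (log2 change −2.73 ± 0.14, adjusted p = 0.00081) and rose in TL3D relative to TL2D (log2 change 3.16 ± 0.22, adjusted p = 0.0112). In TL3D against CK2D it did not pass (log2 change 0.43 ± 0.18, adjusted p = 0.0786). The hog1-named PCI_6282 and the GacS-named PCI_6283 carry consecutive numbers and both fell in TL2D relative to CK2D, while the genes on either side, PCI_6281 (0.56 ± 0.11 on the log2 scale) and PCI_6284 (0.68 ± 0.10), rose. The histidine kinase genes PCI_5360 and PCI_5361 also carry consecutive numbers, and both fell in TL2D and in TL3D relative to CK2D. Next to the histidine kinase 5 gene PCI_9300, the hydrophobin gene PCI_9301 had 164 and 183 FPKM in TL3D, 395 and 298 FPKM in TL2D, and 2.26 and 1.98 FPKM in CK2D, the opposite order of groups. PCI_9392, the number before the srk1-named PCI_9393, rose in TL2D relative to CK2D (log2 change 4.71 ± 0.76), where PCI_9393 fell. In all, 6 pairs of kinase or phosphatase genes carry consecutive numbers. In TL2D against CK2D the fitted log2 changes had opposite signs for PCI_0600 and PCI_0601 (−0.29 and 1.06). They also did for PCI_5129 and PCI_5130 (0.18 and −0.49). The other pairs shared a sign.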
